A study of Mus musculus with 31 samples.

Results

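The replication-dependent histone genes of the mouse were followed through 31 brain RNA libraries, 13 controls and 18 exposed to deltamethrin. They were chosen by symbol, as the genes whose name starts with Hist1h, Hist2h, Hist3h or Hist4h and that had 10 or more counts in at least 13 libraries. The count table lists 48795 genes, of which 68 carry such a symbol and 58 passed the count minimum. The study asked about mouse brain after exposure during development to deltamethrin, which belongs to the pyrethroids, insecticides that keep sodium channels of nerve cells open. Each library was made from the total RNA of homogenised brain tissue, and the labels separate the groups by agent alone. They give no strain, sex, age, litter, dose or batch, so none of these could be set against a group difference. Nothing in the labels says that the libraries of a group came from separate litters, so p-values measure the spread between these samples.

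Core histones H2A, H2B, H3 and H4 form the protein spool around which DNA is wrapped, and H1 is the linker histone that binds where DNA enters and leaves it. Replication-dependent histone genes sit in clusters, have no introns as a rule, and are transcribed mainly in S phase, when new chromatin is built. Their mRNAs are the known exception to polyadenylation among mRNAs: they end in a conserved stem-loop, bound by the stem-loop binding protein Slbp and cut with the help of the U7 small nuclear RNA. In a mature brain, where few cells divide, chromatin is known to rely increasingly on variant histones such as H3.3 that are made outside S phase from polyadenylated mRNA.

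Before the histone values are read, the libraries themselves need a description. Their totals ran from 17570311 counts (control replicate 2) to 38680621 counts (deltamethrin replicate 3), and the member genes together received 32041 to 71092 counts per library. Control replicate 2 stood apart from every other library: mt-Rnr1 and mt-Rnr2, the 2 rRNAs of mitochondria, made up 40.2% of its counts, against 7.32% to 27.4% in the other 30 libraries, and its TMM scaling factor was 0.613. Leaving it out changed many of the group differences described below, and for many of these the value without it is given as well. A difference printed from all libraries alone was not thereby shown to be stable to this library. Neuronal markers identified the tissue in every library, with a summed level of 2023 to 4366 CPM (each gene's counts relative to the size of the library) over Rbfox3, Snap25, Syt1, Stmn2, Map2 and Tubb3. Library sizes behind all CPM values here were adjusted by TMM factors.

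The defining element of these genes could be read from their annotated transcripts. A histone stem-loop, a stem of 6 base pairs closed by a loop of 4 bases, was found in the gene models of 39 of the 58 members. Of the 19 models without it, 14 end within 2 bases of the stop codon, so the models stop before the element would be reached. Matches that began before the stop codon, where this could be read, were left out for members. Among other protein-coding genes the same pattern, searched over whole transcripts with the coding part included, matched 24 of 21836 (0.11%). The sequences below show the element of 6 members that recur in the results, 1 or 2 per class, from GENCODE M21 transcripts on GRCm38, with the stem-loop in capitals and 5 flanking bases on each side.
Hist1h1c (H1): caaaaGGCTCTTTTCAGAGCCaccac
Hist1h2ab (H2A): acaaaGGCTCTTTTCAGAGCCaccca
Hist3h2ba (H2B): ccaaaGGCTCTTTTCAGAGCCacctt
Hist1h3e (H3): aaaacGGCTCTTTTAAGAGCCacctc
Hist1h4n (H4): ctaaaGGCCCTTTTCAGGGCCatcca
Hist1h4a (H4): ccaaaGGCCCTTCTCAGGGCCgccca
These elements lie in the 3′ UTR, and in the 38 members where the distance could be read the stem began 21 to 54 bases after the stop codon. The stem separated the classes: all 28 elements found in H1, H2A, H2B and H3 members had the stem GGCTC at their 5′ side, while the 11 of H4 members had GGCCC, or GGTCC in Hist1h4j. Many annotated models run on past the element. Of the 39, 16 extend more than 300 bases beyond it, up to 4884 bases in Hist1h1d, a stretch that a transcript cut at the stem-loop would not contain.

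Promoters of 50 members were matched to RefSeq windows of 300 bases (250 before to 50 after the gene start, GRCm38.p6). The CCAAT box (CCAAT on either strand) was in 42 of the 50 windows (84%), against 37.4% of all 32851 promoter windows. It was present in every matched H1, H2A, H2B and H3 window (5, 14, 12 and 8 genes) but in 3 of 11 H4 windows. The letters TATAAA, on either strand, were in 32 of 50 windows (64%), against 13.6% of all. Of the 50 windows, 16 overlap the window of another member, since many H2A and H2B genes lie head to head. The stretch between Hist2h2ac and Hist2h2be is shown because this pair behaved differently below despite its shared promoter region, and the Hist1h4d promoter is shown as an H4 example. Capitals mark the TATAAA letters and the CCAAT box, which reads ATTGG where it lies on the opposite strand.
Hist2h2ac to Hist2h2be, chr3:96220881-96221118, minus strand: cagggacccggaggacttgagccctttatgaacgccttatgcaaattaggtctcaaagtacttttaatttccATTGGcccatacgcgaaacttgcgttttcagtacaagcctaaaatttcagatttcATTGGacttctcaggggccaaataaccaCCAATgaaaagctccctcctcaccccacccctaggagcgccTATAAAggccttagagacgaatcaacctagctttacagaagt
Hist1h4d, chr13:23581448-23581567, plus strand: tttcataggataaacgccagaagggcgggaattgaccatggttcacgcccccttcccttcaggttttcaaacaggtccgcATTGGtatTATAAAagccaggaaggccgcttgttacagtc
The first stretch, read here towards Hist2h2ac, holds 3 CCAAT boxes, 1 on the strand of Hist2h2ac and 2 on that of Hist2h2be. It has 1 TATAAA, which starts 42 bases before Hist2h2ac. The Hist1h4d stretch holds TATAAA 32 bases before the gene start and 1 CCAAT box on the opposite strand.

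Of the 58 members, 49 lie on chromosome 13, 5 on chromosome 3, 3 on chromosome 11 and 1 on chromosome 6. With a matching symbol, 10 genes did not reach the count minimum. Listed at 0 in every library were 6 of them, Hist2h2aa1, Hist2h2aa2, Hist2h3c1, Hist2h3b, Hist2h2bb and the testis gene Hist1h2aa. Hist2h2aa1, Hist2h2aa2, Hist2h3c1 and Hist2h3b share 77.1% to 100% of their 100-base stretches with other genes, Hist2h2bb 45.4% and Hist1h2aa 0%. Exons of Hist2h2aa1, Hist2h3c1 and Hist2h2bb also overlap another gene model on the same strand. Where stretches are shared or models overlap the 0 is uncertain, since how reads with several matches were counted is not given in the sources used here. Of the other 4, the testis genes Hist1h1t and Hist1h2ba reached at most 5 and 11 counts, Hist1h4b had 10 or more counts in 6 libraries, and the pseudogene Hist1h2al in 11. Just inside the minimum was Hist1h2an, with 3 to 21 counts and 13 libraries at 10 or more, and the next members had 30. Hist1h2an was dropped by the expression filter of the test, so 57 members were tested. Hist1h2aj and Hist3h2bb-ps are annotated as pseudogenes. In 53 of the 58 members at least 1 stretch of 100 bases is also found in another annotated gene, so counts may be split or exchanged between copies.

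H4 messages made up most of the histone RNA as counted. They held 68.1% of the CPM of the members, against 11.5% for H2B, 9.49% for H1, 7.80% for H3 and 3.16% for H2A, averaged over the libraries. Per kilobase of gene model the order was led by H4 as well: the median H4 gene had 160 CPM per kb, the median H1 gene 18.1, H3 14.1, H2B 6.90 and H2A 4.76. The highest were Hist1h4n with 364 ± 185 CPM per kb (SD, n = 31) and Hist1h4h with 353 ± 173, whose difference is far smaller than either spread. The highest gene of another class was Hist3h2ba, with 73.9 ± 23.8 CPM per kb. Because several models extend past the stem-loop, a level per kb understates genes with such a model if their reads end at the element.

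Summed over the 57 tested members, the histone level in control libraries ran from 1278 (replicate 4) through a median of 1720.4 to 4797 CPM (replicate 2). In deltamethrin libraries it ran from 829 (replicate 1) through 1508 to 2426 CPM (replicate 8). The groups overlapped over most of their range: 12 of 18 deltamethrin libraries lay below the control median, and the second highest control library had 2677 CPM. Means were 1955 ± 950.4 CPM (SD, n = 13) and 1551 ± 469.9 CPM (n = 18), a ratio of 0.793, and the control mean was 1718 ± 436 CPM without replicate 2. In whole brain RNA, fewer cells making histone mRNA and less histone mRNA per cell cannot be told apart.

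**Figure D1:**
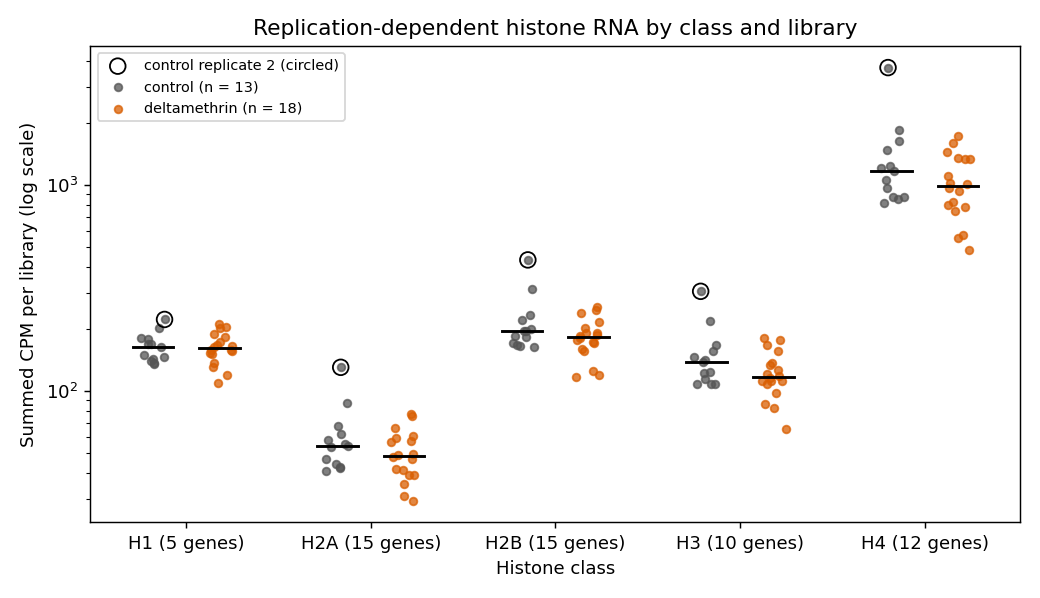
Summed CPM of each histone class (log axis) in every library, grey for control (n = 13) and orange for deltamethrin (n = 18), with the median of each group as a black bar. Control replicate 2 (circled) is the highest point of every class, and the remaining points of the 2 groups overlap in each class.

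No histone gene passed the test between the groups. With edgeR's quasi-likelihood test and Benjamini-Hochberg adjustment over 19529 genes, 0 of the 57 members had an adjusted p-value under 0.05, and neither did any other gene (0.0% of genes called). The smallest adjusted p-value of a member was 0.813, and the smallest of any gene was 0.441. At an unadjusted p under 0.05, 16 members were lower and 1 was higher with deltamethrin, while 2.37% of all genes tested were lower and 2.0% were higher (4.37% in either direction). By sign alone 52 members were lower and 5 higher, and the median log2 fold change of the members was −0.30, against 0.0014 over all genes. The 16 had unadjusted p-values between 0.00670 and 0.0491 and log2 fold changes between −0.59 and −0.28, and another 18 were lower with p between 0.05 and 0.1. DESeq2 also gave 0 members with an adjusted p under 0.05, with 23 lower and 1 higher at an unadjusted p under 0.05. By DESeq2, 2.67% of all genes were lower and 2.38% higher at that threshold. The members are not independent of each other, as shown by their co-variation further on, so these counts are not separate events. In all 57 members the ranges of the groups overlapped.

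That count depended on single libraries. Without control replicate 2 it was 2 members, Hist1h2ab and Hist1h2bk, with a median log2 fold change of −0.15, and without control replicate 11 it was 1 member, with a median of −0.24. Without deltamethrin replicate 3 it was 2 members, and without deltamethrin replicate 10 it was 33. The shares of all genes lower at that threshold in these fits were 1.89%, 1.37%, 1.37% and 4.12%, in that order. The sign was steadier than the count: between 50 and 54 members were lower whichever of the 31 libraries was left out.

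**Figure D2:**
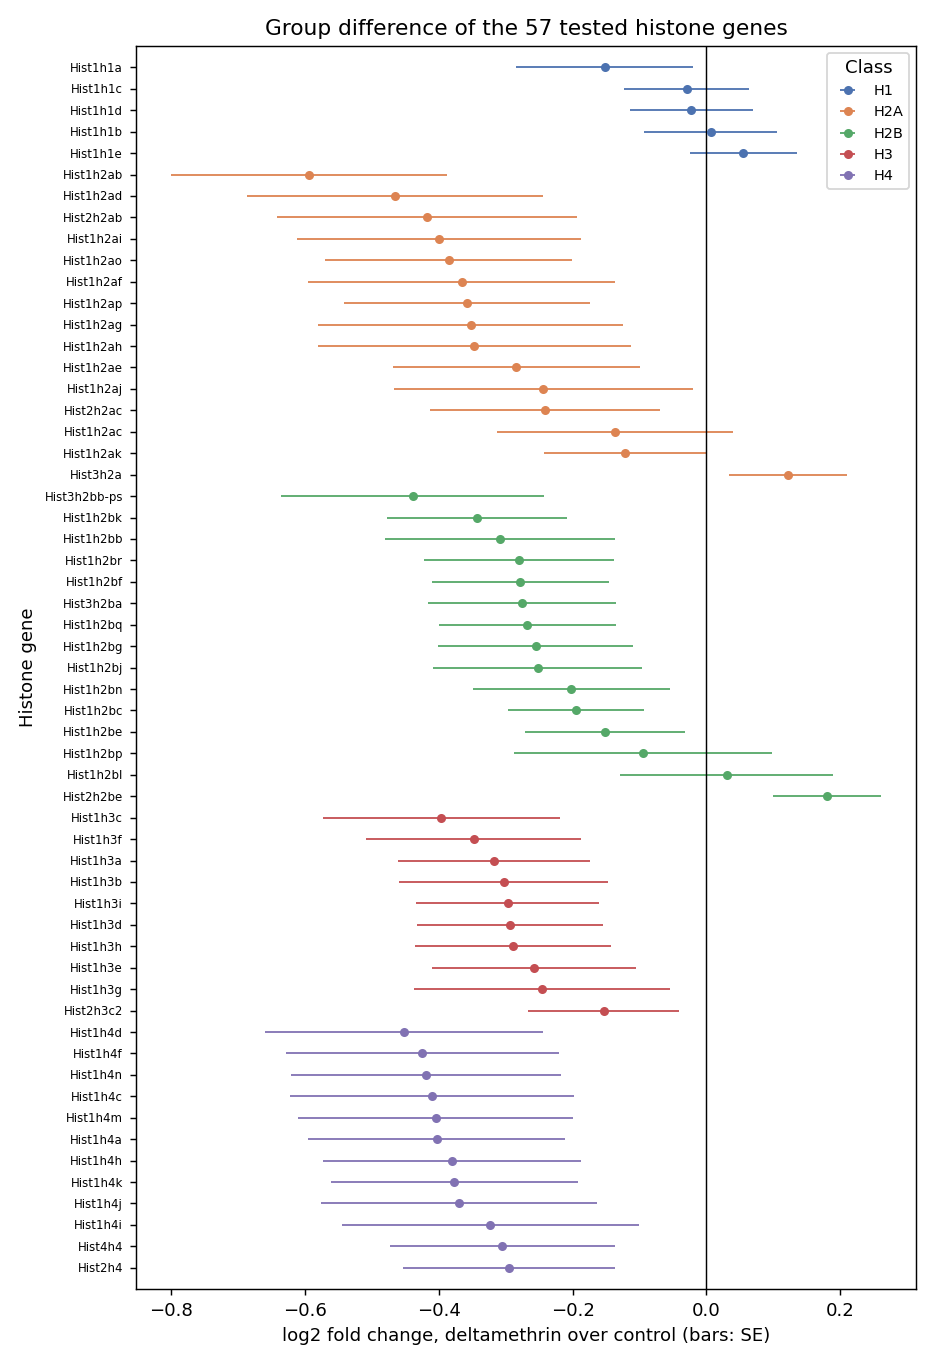
Log2 fold change of deltamethrin over control for each of the 57 tested members, ordered within class, with bars for the SE and colours for the class. All H3 and H4 genes lie left of 0, H1 genes straddle it, and Hist2h2be, Hist3h2a and Hist1h2bl lie to the right.

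Linker histone genes showed the smallest difference. Of 5 genes, 3 were lower and 2 higher, none at an unadjusted p under 0.05, with a median log2 fold change of −0.022. The median was 0.028 without control replicate 2, with 1 gene lower and 4 higher. Hist1h1c, the H1 gene with the highest level per kb (46.7 ± 8.44 CPM per kb), ran from 58.3 through 74.6 to 100.9 CPM in controls and from 46.3 through 70.3 to 100.1 CPM with deltamethrin. Its log2 fold change was −0.029 ± 0.094 (SE), and 0.012 without control replicate 2, so the groups did not differ beyond their spread. Hist1h1e, the next by level, ran from 40.9 through 52.0 to 62.2 CPM in controls and from 38.7 through 54.9 to 66.8 CPM with deltamethrin, a log2 fold change of 0.055 ± 0.080. The exon of Hist1h1e overlaps that of Hist1h2be on the same strand, so reads of the pair may be exchanged. Hist1h1e varied least of all 57 members across the libraries, by 1.72-fold from lowest to highest.

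H2A genes were lower by sign in 14 of 15 cases, 3 of them at an unadjusted p under 0.05, with a median log2 fold change of −0.35. Leaving out control replicate 2 gave 14 lower, 1 at an unadjusted p under 0.05, and a median of −0.16. Hist1h2ab (chr13:23751126-23751598, 1 exon) had the smallest p of all members. It ran from 0.804 through 1.51 to 3.53 CPM in controls and from 0.297 through 1.08 to 1.77 CPM with deltamethrin, and 14 of 18 deltamethrin libraries lay below the control median. The log2 fold change was −0.59 ± 0.21 (unadjusted p = 0.00670, adjusted p = 0.813 by edgeR). This is a thinly counted gene, with a mean of 39.2 counts per library, and 52.4% of its 100-base stretches occur in other H2A genes. Hist1h2ad (1.68 to 8.27 CPM in controls, 0.804 to 4.10 CPM with deltamethrin) and Hist1h2ai (1.28 to 4.83 and 0.654 to 3.30 CPM) were chosen for their wide spread between libraries, with SDs of log2 CPM of 0.67 and 0.65. Their log2 fold changes were −0.47 ± 0.22 and −0.40 ± 0.21, and both were −0.31 without control replicate 2.

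The H2A gene with the highest level per kb was Hist2h2ac (23.1 ± 9.41 CPM per kb), of the chromosome 3 cluster. In controls it ran from 8.41 through 12.04 to 31.4 CPM, and with deltamethrin from 6.46 through 10.7 to 19.1 CPM. Its log2 fold change was −0.24 ± 0.17 (unadjusted p = 0.169), and −0.086 without control replicate 2. Its neighbour Hist2h2ab had a mean of 3.06 ± 2.09 CPM in controls and 2.21 ± 0.870 CPM with deltamethrin, and the single control library at 9.38 CPM, replicate 2, was the highest. Its log2 fold change of −0.42 ± 0.22 was −0.20 without that library. Hist1h2ak, second by level per kb, had 5.96 ± 1.49 and 5.45 ± 1.33 CPM and differed by −0.12 ± 0.12 on the log2 scale, or −0.049 without control replicate 11, its highest library. Hist3h2a was the only H2A gene higher with deltamethrin by sign, with 7.58 ± 1.39 CPM in controls and 8.21 ± 1.31 CPM with deltamethrin (log2 fold change 0.12 ± 0.088). Its exon overlaps that of Trim17 on the same strand. Of the 16 H2A members, 15 have an annotated microRNA model on the opposite strand, and whether counting used strand is not given in the sources used here.

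Of 15 H2B genes, 13 were lower by sign and 3 of them at an unadjusted p under 0.05, with a median log2 fold change of −0.26. With control replicate 2 left out, 13 were lower, 1 at an unadjusted p under 0.05, and the median was −0.13. Hist3h2ba, the H2B gene with the highest level per kb, ran from 37.8 through 44.0 to 104 CPM in controls and from 22.1 through 41.6 to 59.1 CPM with deltamethrin (log2 fold change −0.28 ± 0.14). The control maximum was replicate 2 and the deltamethrin minimum replicate 3, and the medians of the groups were close, with a log2 fold change of −0.15 without that control. For Hist1h2bg the means were 28.1 ± 10.2 and 23.4 ± 6.46 CPM (log2 fold change −0.26 ± 0.15, and −0.15 without control replicate 2). Hist1h2bk had 4.47 through 5.75 to 12.7 CPM in controls and 3.32 through 4.95 to 7.78 CPM with deltamethrin, and 14 of 18 deltamethrin libraries were below the control median. Its log2 fold change was −0.34 ± 0.13 (unadjusted p = 0.0155). Hist3h2bb-ps, an annotated pseudogene with a mean of 379.9 counts, ran from 9.85 through 13.1 to 48.9 CPM in controls and from 5.11 through 11.4 to 18.2 CPM with deltamethrin. Its log2 fold change of −0.44 ± 0.20 (unadjusted p = 0.0323) was −0.19 without control replicate 2.

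Hist2h2be stood apart from most of the members. It encodes H2BE, an H2B variant known for its expression in olfactory sensory neurons and other neurons, that is, in cells that do not divide. It ran from 4.19 through 5.35 to 5.48 CPM in controls and from 3.92 through 5.88 to 7.42 CPM with deltamethrin. The controls were tightly grouped, and 11 of 18 deltamethrin libraries lay above the control median. The log2 fold change was 0.18 ± 0.081 (unadjusted p = 0.0327, adjusted p = 0.813 by edgeR), the only member higher at an unadjusted p under 0.05. Its value did not rest on control replicate 2, without which it was 0.18 as well. This was not particular to Hist2h2be: Hist3h2a and Hist1h1e, also higher by sign, were at 0.14 and 0.076 without that library. No stretch of 100 bases in its model occurs in another gene, and no stem-loop was found in the 2192 bases annotated after its stop codon.

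Every H3 gene was lower by sign. Of the 10, 5 had an unadjusted p under 0.05, with log2 fold changes from −0.40 to −0.15 over the class and a median of −0.30. All 10 were lower without control replicate 2 too, 0 at an unadjusted p under 0.05, and the median was then −0.19. Hist1h3i, highest of the class per kb (42.4 ± 13.9 CPM per kb), ran from 13.1 through 17.3 to 39.1 CPM in controls and from 9.25 through 15.9 to 22.8 CPM with deltamethrin (log2 fold change −0.30 ± 0.14). For Hist1h3e, the next, the values were 25.2, 31.8 and 78.8 CPM in controls and 14.6, 28.9 and 45.9 CPM with deltamethrin (−0.26 ± 0.15). In both genes the deltamethrin libraries reached lower and the controls higher, with most libraries in the shared range. Hist1h3c had the largest difference of the class, 3.55 ± 1.82 against 2.62 ± 0.679 CPM (−0.40 ± 0.18, unadjusted p = 0.0318), and Hist1h3a had 4.59 ± 1.35 against 3.64 ± 1.08 CPM (−0.32 ± 0.14, unadjusted p = 0.0335). The log2 fold changes of Hist1h3i, Hist1h3e, Hist1h3c and Hist1h3a without control replicate 2 were −0.18, −0.12, −0.27 and −0.25.

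H4 genes were lower in all 12 cases, 5 at an unadjusted p under 0.05, and had a median of −0.39, the lowest of the classes with all libraries in the fit. Without control replicate 2 all 12 were lower, 0 at an unadjusted p under 0.05, and the median was −0.17, above the −0.19 of H3. Hist1h4n (chr13:21831767-21832196, minus strand, 1 exon) ran from 111.1 through 152 to 492 CPM in controls and from 65.8 through 130.8 to 244 CPM with deltamethrin. The log2 fold change was −0.42 ± 0.20 (unadjusted p = 0.0452), and −0.20 without control replicate 2. Hist1h4n and Hist1h4m share 80.7% and 88.1% of their 100-base stretches with other genes, chiefly with each other, so their separate values are uncertain. Hist1h4h had 117 through 158 to 528 CPM in controls and 69.3 through 145 to 227 CPM with deltamethrin (−0.38 ± 0.19, and −0.16 without control replicate 2). Hist1h4i was the most variable H4 gene, from 22.2 through 32.7 to 116.5 CPM in controls and from 13.99 through 29.4 to 58.1 CPM with deltamethrin (−0.32 ± 0.22, and −0.087 without control replicate 2). Hist1h4d and Hist2h4 are H4 genes with no shared 100-base stretch. Hist1h4d had 213 ± 129 CPM in controls and 155 ± 57.8 CPM with deltamethrin (−0.45 ± 0.21, unadjusted p = 0.0366), and Hist2h4 had 96.1 ± 41.2 and 78.2 ± 21.9 CPM (−0.30 ± 0.16, unadjusted p = 0.0710). Their log2 fold changes without control replicate 2 were −0.21 and −0.14.

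The direction was alike in genes with few and with many shared stretches. Among the 21 members with under 25% of their 100-base stretches shared, 18 were lower, 4 at an unadjusted p under 0.05, with a median of −0.28. Of the 21 with 50% or more shared, 20 were lower, 7 at an unadjusted p under 0.05, with a median of −0.35. Without control replicate 2 the first group had 16 lower, 0 at an unadjusted p under 0.05, with a median of −0.087, and the second 20 and 2, with a median of −0.18.

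The members moved together from library to library, in both groups. Over the 31 libraries the median Pearson r of log2 CPM between 2 members was 0.833 (1596 pairs, from −0.19 to 0.998), and 0.786 without control replicate 2. These pairs share the libraries and their scaling, and without scaling factors the median was 0.732. H4 genes were the tightest class, with a median of 0.978 over 66 pairs, and H1 genes the loosest, with 0.739 over 10 pairs. Classes also tracked each other: the mean H2A level and the mean H4 level had r = 0.977 (Spearman 0.978), and H1 against H4 had r = 0.847 (Spearman 0.759). Control replicate 2 was the highest library for 51 of the 57 members, and deltamethrin replicate 1, 2 or 3 the lowest for 51. With each gene set against the mean of the other members, 48 of 57 had an r of 0.8 or more. The lowest were Hist2h2be (0.125), Hist3h2a (0.423), Hist1h1b (0.536) and Hist1h1e (0.564). For Hist1h4n the closest members were Hist1h4m (0.998), Hist1h4a (0.992) and Hist1h4f (0.989). The closest other genes of the table were Mrpl57 (0.976), a mitochondrial ribosomal protein gene, Ndufb4 (0.976), a subunit gene of respiratory complex I, and Gm6139 (0.975).

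**Figure D3:**
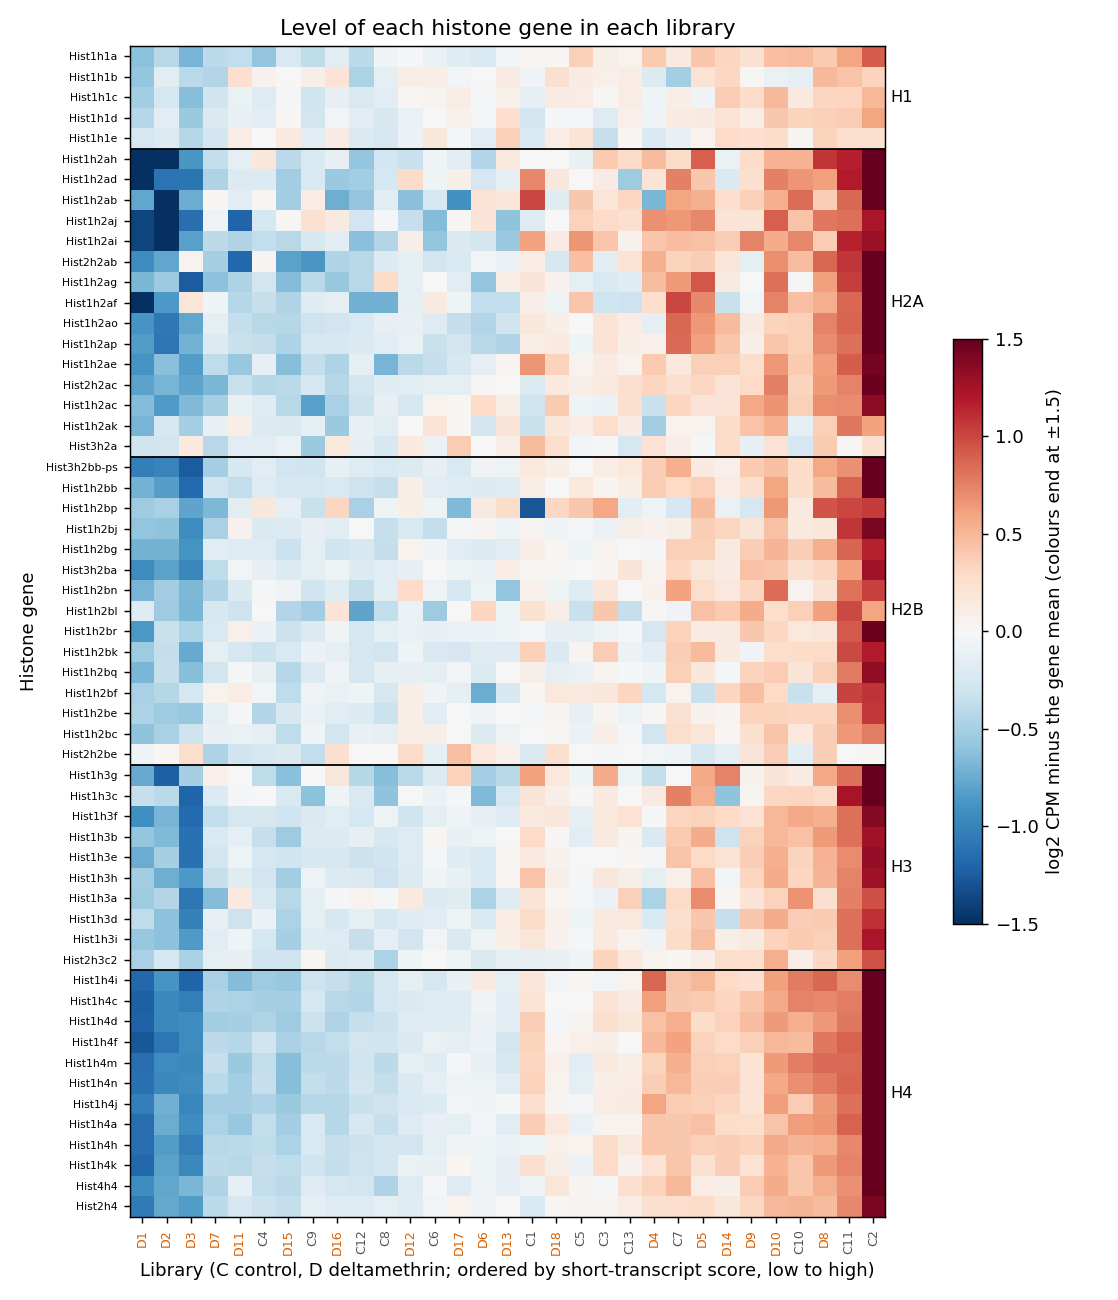
Log2 CPM of each member in each library minus the mean of that gene, with libraries ordered from low to high short-transcript score (defined in the text on library composition) and genes grouped by class. Columns change colour as a whole across classes, from blue in deltamethrin replicates 1, 2 and 3 to red in control replicates 11 and 2, and the rows of Hist2h2be, Hist3h2a, Hist1h1b and Hist1h1e are pale.

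Genes that share a promoter region were compared next. The tested H2A and H2B members form 11 head-to-head pairs, with starts 173 to 302 bases apart, and their median r was 0.807. The other 214 combinations of an H2A with an H2B gene had a median of 0.788. Hist1h2ae and Hist1h2bg were the closest such pair, with r = 0.907, and had log2 fold changes of −0.28 and −0.26. Without control replicate 2 these were −0.16 and −0.15. The pair whose intergenic sequence is printed above was the least alike: Hist2h2ac and Hist2h2be had r = 0.242 and log2 fold changes of −0.24 and 0.18. Next came Hist3h2a and Hist3h2bb-ps with r = 0.402, and log2 fold changes of 0.12 and −0.44.

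Histone levels moved with the composition of the libraries. The histone level of a library is taken here as the mean over the 57 members of log2 CPM minus the mean of each gene. Over 31 libraries it had r = 0.837 (Spearman 0.822) with the log2 share of the mitochondrial ribosomal RNAs, and r = 0.777 after the 2 libraries with the most extreme share were dropped. Within the groups r was 0.873 in controls and 0.839 with deltamethrin. A second measure, chosen after the data were seen, is the short-transcript score: mean log2 CPM of protein-coding genes with models of 1000 bases or less, histone and mitochondrial genes left out, minus that of genes of 5000 bases or more. Against this score the histone level had r = 0.965 (Spearman 0.971), 0.958 without the 2 farthest libraries, 0.968 in controls and 0.978 with deltamethrin. The score was −2.12 ± 0.309 (SD, n = 13) in controls and −2.29 ± 0.353 (n = 18) with deltamethrin, with overlapping ranges. The histone level was also lower in libraries with more counts, with r = −0.76 (Spearman −0.69) against the log2 total, −0.94 in controls and −0.50 with deltamethrin.

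**Figure D4:**
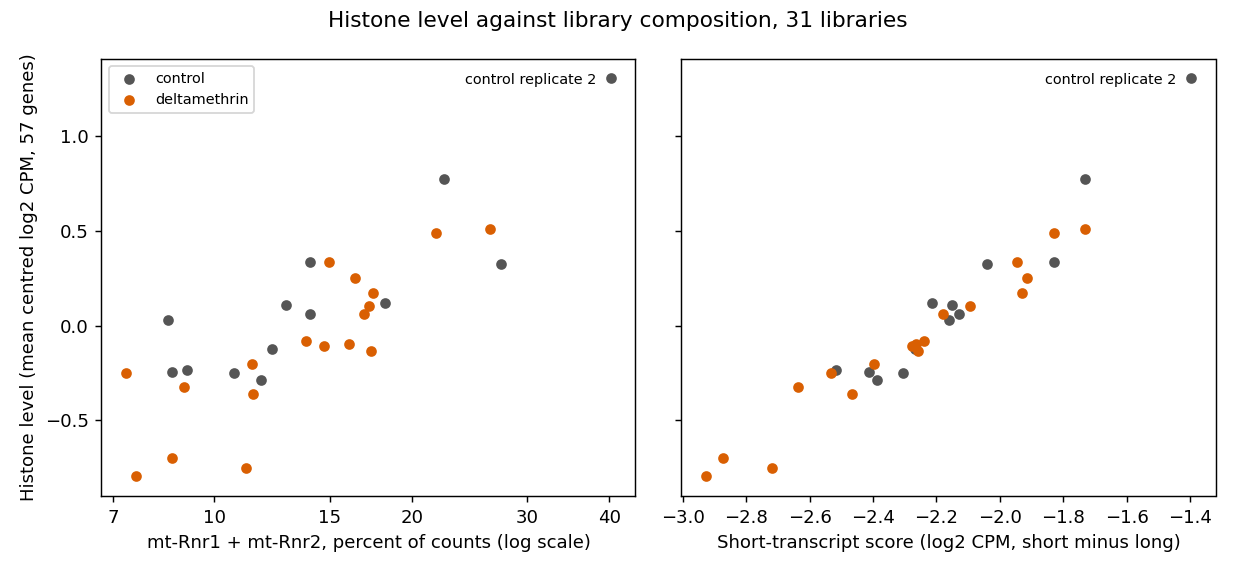
Mean centred log2 CPM of the 57 members against the percent of counts from mt-Rnr1 and mt-Rnr2 (left, log axis) and against the short-transcript score (right), 1 point per library, grey for control and orange for deltamethrin. The points rise along both axes in both groups, more tightly on the right (r = 0.965) than on the left (r = 0.837), and control replicate 2 is the upper right point of each panel.

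Entering these measures as a covariate of the same fit changed the count in opposite directions. With the log2 mitochondrial rRNA share as covariate, 34 members were lower and 2 higher at an unadjusted p under 0.05. In that fit 5.81% of all genes were lower and 3.39% higher, and the median of the members was −0.23. With the short-transcript score as covariate, 1 member was lower and 2 were higher, beside 2.67% and 1.96% of all genes. The median of the members was then −0.062. The 3 members past that threshold were Hist1h2ab (−0.38, unadjusted p = 0.0122), Hist2h2be (0.21, unadjusted p = 0.00911) and Hist3h2a (0.18, unadjusted p = 0.0225). Neither covariate gave a member with an adjusted p under 0.05. The score is computed from the same libraries and differs between the groups, so a shift shared by short transcripts and a shift of histone mRNA cannot be told apart in this fit.

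The length of the gene model ran through these patterns. Of the 33 members with models of 700 bases or less, 32 were lower, 13 of them at an unadjusted p under 0.05, with a median of −0.35. Of the 11 with models of 1500 bases or more, 8 were lower, none at an unadjusted p under 0.05, with a median of −0.14. Without control replicate 2 the short models had 32 lower, 2 at an unadjusted p under 0.05 (median −0.19), and the long models 6 lower, 0 at that threshold (median −0.014). Spread followed length too: the SD of log2 CPM over the libraries had a median of 0.542 among the short models and 0.338 among the long ones (Spearman −0.47 over the 57 members). The long-model members with the smallest spread were Hist1h1e, Hist2h2be (SD 0.226) and Hist3h2a (SD 0.246). Hist2h4 and Hist4h4 were long-model genes with wide spread (SD 0.471 and 0.491). Short genes outside the family leaned the same way. Of 317 other protein-coding genes with models of 1000 bases or less, 83.9% were lower by sign and 18 (5.68%) at an unadjusted p under 0.05, with 0 higher and a median of −0.16. The same values without control replicate 2 were 77.3%, 6 lower and 1 higher, with a median of −0.097. Of 6441 with models of 5000 bases or more, 43 (0.668%) were lower and 166 (2.58%) higher, with a median of 0.037, and 65 and 128 without that library, with a median of 0.028.

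**Figure D5:**
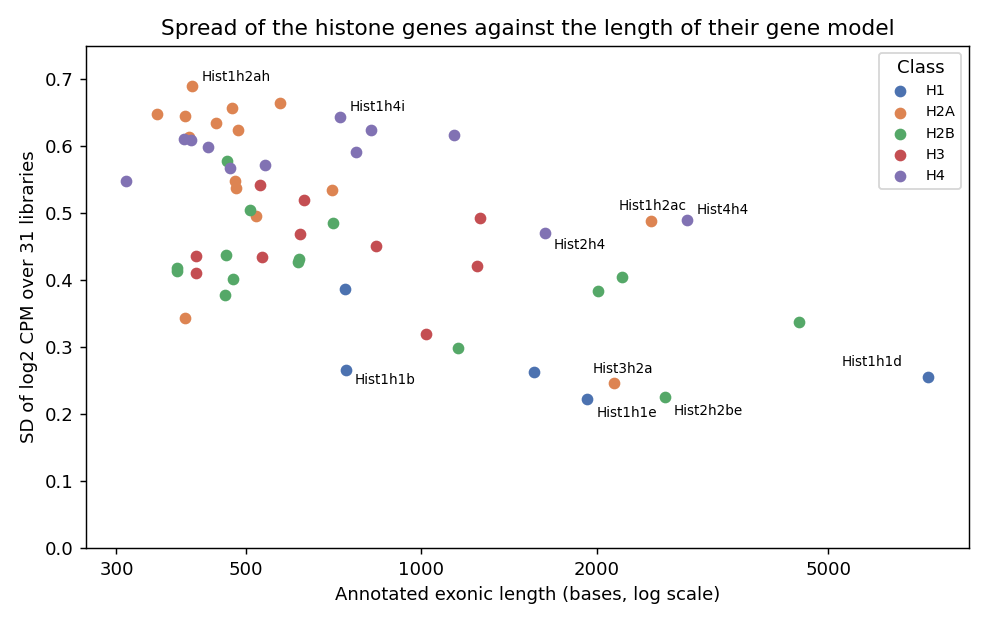
SD of log2 CPM over the 31 libraries against the annotated exonic length of each of the 57 members (log axis), coloured by class. Short models lie between 0.344 and 0.690, the H1 genes, Hist2h2be and Hist3h2a lie low, and Hist2h4, Hist4h4 and Hist1h2ac are long models with wide spread.

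Genes that act with the histones were compared between the groups as well. Among 13 tested genes for making and trimming histone mRNA, none passed adjustment, and 1 was lower and 1 higher at an unadjusted p under 0.05, with a median of 0.013. Without control replicate 2, 0 were lower and 1 higher at that threshold, and the median was 0.0039. Lsm10, a subunit of the U7 particle, had 6.30 ± 1.248 CPM in controls and 5.40 ± 1.06 CPM with deltamethrin (log2 fold change −0.21 ± 0.10, unadjusted p = 0.0436). Its model is short, 943 bases, and its r with the histone level was 0.845. Its log2 fold change without control replicate 2 was −0.17 (unadjusted p = 0.0985). Eri1, an exonuclease that trims the histone stem-loop end, had 10.7 ± 0.714 and 11.6 ± 1.11 CPM (0.11 ± 0.051, unadjusted p = 0.0329), with 15 of 18 deltamethrin libraries above the control median. Slbp, whose protein binds the stem-loop, had 11.3 ± 1.16 and 12.3 ± 1.29 CPM (0.12 ± 0.059, unadjusted p = 0.0575), and its r with the histone level was −0.77 in controls and −0.071 with deltamethrin (−0.45 pooled).

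The 20 S-phase and replication genes had 0 calls at either threshold, 8 lower and 12 higher by sign, and a median of 0.041. That median was 0.019 without control replicate 2. The summed level of the 20 genes was 109 to 122 CPM in controls and 104 to 123 CPM with deltamethrin. This is a narrow range beside the 829 to 4797 CPM of the histones. Single genes of the list moved both ways with the histone level, from r = −0.70 (Rrm1) to 0.752 (Pcna). A narrow sum therefore does not mean that each gene was steady. Of 9 tested mitosis genes, Tpx2, a spindle assembly factor, was higher at an unadjusted p under 0.05, with 1.45 ± 0.209 CPM in controls and 1.81 ± 0.332 CPM with deltamethrin (0.31 ± 0.099, unadjusted p = 0.00399, adjusted p = 0.813 by edgeR). The proliferation markers Mki67 and Top2a stood at 1.31 ± 0.364 and 0.841 ± 0.291 CPM in controls. Their r with the histone level differed in sign between the groups: for Mki67 it was 0.292 in controls and −0.60 with deltamethrin (−0.19 pooled), and for Top2a 0.364 and −0.20 (0.021 pooled). Pcna, the replication clamp, had the highest r of the replication list, 0.775 in controls and 0.761 with deltamethrin (0.752 pooled). The mean of that list had r = −0.058 pooled, −0.35 in controls and 0.18 with deltamethrin. Of 11 histone chaperone genes, none had an unadjusted p under 0.05, and the median was 0.0025, or 0.043 without control replicate 2.

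Variant histone genes, listed here as genes with polyadenylated mRNA, had 8 of 11 lower by sign and none at an unadjusted p under 0.05. Their median was −0.057. The smallest p was just above that threshold, for H2afx (−0.17 ± 0.083, unadjusted p = 0.0501 by edgeR). Their summed level was 510 to 672 CPM in controls and 440 to 649 CPM with deltamethrin. H2afz, the gene of H2A.Z, had 128 ± 27.8 and 115 ± 22.05 CPM (−0.16 ± 0.10, and −0.087 without control replicate 2), with r = 0.962 against the level of the replication-dependent genes. H3f3b, a gene of H3.3, had 158 ± 16.5 and 165 ± 19.3 CPM (0.062 ± 0.064), with r = 0.565. The variant genes did not all follow that level. Their r ran from −0.53 (H2afy) and −0.38 (H1f0), through 0.00017 (H1fx) and 0.060 (H2afy2), up to the 0.962 of H2afz.

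Other abundant RNAs without a poly(A) tail showed larger differences in the same direction. Of 5 tested, 4 were lower at an unadjusted p under 0.05, none passed adjustment, and the median was −0.60. These calls rested on control replicate 2: with it left out all 5 were lower by sign, 0 of them at an unadjusted p under 0.05, and the median was −0.16. Rmrp, the RNA of an RNase that processes ribosomal and mitochondrial RNA, had 11.3 ± 12.9 CPM in controls and 5.92 ± 2.76 CPM with deltamethrin (−0.88 ± 0.32, unadjusted p = 0.00965). Rn7s2 and Rn7s1, RNAs of the signal recognition particle, had log2 fold changes of −0.76 ± 0.30 and −0.60 ± 0.29. Rmrp, Rn7s2 and Rn7s1 had −0.42, −0.30 and −0.16 in that fit. Their summed level with Rpph1 and Terc reached 89495 CPM in 1 control library, against 32754 CPM at most with deltamethrin. Over the 31 libraries the mean of the list had r = 0.918 with the histone level.

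Some marker lists of cell types moved with the histone level and others hardly did, and their part in it was not tested. The mean of 5 blood and erythroid genes, 4 of them short globin mRNAs, had r = 0.848 with the histone level, with a summed level of 492 to 1670 CPM in controls and 380 to 1242 CPM with deltamethrin. Its median log2 fold change was −0.29, and −0.17 without control replicate 2. Astrocyte and neuron lists had r = −0.87 each, with 6 of 6 astrocyte genes and 4 of 6 neuron genes higher by sign, or 5 and 2 without control replicate 2. The lists for oligodendrocyte precursors and microglia had r = −0.68 and −0.61. Of 6 microglia genes, 2 were lower and 4 higher by sign. Only Tmem119 of these had an unadjusted p under 0.05 (−0.15 ± 0.058, unadjusted p = 0.0117, adjusted p = 0.813 by edgeR). The joint list for neural progenitors and newborn neurons had r = −0.72 and a median log2 fold change of 0.039 (0.0051 without control replicate 2). Of its 9 genes, 3 were lower and 6 higher by sign, and only 1, Sox11, had an unadjusted p under 0.05. Sox11 had 18.2 ± 2.56 CPM in controls and 21.7 ± 4.90 CPM with deltamethrin (0.25 ± 0.095, unadjusted p = 0.0123, adjusted p = 0.813 by edgeR). All 6 choroid plexus genes were lower by sign, 2 at an unadjusted p under 0.05, with a median of −0.19, and their r was 0.606 in controls and −0.069 with deltamethrin (0.325 pooled). When control replicate 2 was left out, 1 had an unadjusted p under 0.05. All 6 cerebellar genes were higher by sign, 1 at an unadjusted p under 0.05 (Calb1), with a median of 0.24 and r = −0.36. Of the marker lists, the oligodendrocyte list had the weakest pooled relation, with r = −0.22 (−0.58 in controls and 0.063 with deltamethrin). The endothelial list had r = −0.35, with 2 genes lower and 4 higher by sign. Only Cldn5 of that list had an unadjusted p under 0.05 (0.21 ± 0.067, unadjusted p = 0.00407, adjusted p = 0.813 by edgeR). All defining markers of these lists were detected, the lowest being Neurog2 with 0.377 ± 0.161 CPM in controls.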

How the data were processed

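The authors deposited whole-number counts per Ensembl gene for 31 libraries, with no normalization, and columns were tied to samples through the titles. The submitters' processing notes name Trimmomatic, HISAT2, SAMtools and MultiQC and the build GRCm38. The counting tool, its use of strand and its treatment of reads with several matches are not given in the sources used here. Gene models, lengths and transcript sequences came from GENCODE M21, in which 48435 IDs (99.3%) were found, and 28 symbols that were missing or in date form were replaced from it. Genes were kept with filterByExpr (minimum count 10, minimum total 15), scaled by TMM and compared with edgeR 4.0.16 (R 4.3.3; quasi-likelihood F-test, robust, no covariates), with Benjamini-Hochberg adjustment over 19529 genes. A positive log2 fold change means higher with deltamethrin, its SE was taken as its size over the root of F, and a prior count of 2 was used for log2 CPM. DESeq2 1.42.0 and limma 3.58.1 were alternatives. The fit was tested on simulated counts.

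The members and gene lists were chosen with earlier results of these data known. The members named were the 6 with the smallest p, the 2 of each class with the highest CPM per kb, and the 4 with the largest SD of log2 CPM among those with a mean count of at least 50. Up to 3 genes of each other list with an unadjusted p under 0.05 were added, and the 3 members and 3 other genes closest to the member with the highest CPM per kb. Hist1h4d, Hist2h4, Hist3h2a, Hist1h2ae, Slbp, Sox11, Pcna, Mki67, Top2a, H2afz, H3f3b and other genes not covered by this rule were named after their values were seen. The short-transcript score was also chosen after seeing the data. Replicates are numbered by sample order. Each library's total limits the precision of its thinly counted genes, and the counts have no molecular identifiers.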

Additional observations from a re-analysis of the deposited data

How the results depend on the processing

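No paired analysis was possible because replicates are numbered by sample order, which pairs nothing. The number of members with an adjusted p under 0.05 was 0 under every alternative run and in each fit that left out 1 library, and also at a threshold of 0.1. The smallest adjusted p of any gene was 0.0521, in the edgeR fit without control replicate 5. The median log2 fold change of the members was negative in all of them, from −0.34 to −0.15 when 1 library was left out. The number of members lower at an unadjusted p under 0.05, 16, became 8 with upper quartile factors, 7 without scaling factors, 6 with no filter on low counts, 10 when members and other genes needed a mean of 50 counts, and 5 with limma voom. In those fits 1.68%, 0.881%, 1.96%, 2.29% and 2.27% of all genes were lower, in that order. The member count was 34 with the mitochondrial rRNA share as covariate (5.81% of all genes lower). With the short-transcript score, an alternative added after seeing the data, it was 1 (2.67%). Leaving out 1 library gave 1 to 33 members, with 1.27% to 4.54% of all genes lower. The member count was 1, 2, 5 and 9 without control replicates 11, 2, 10 and 7 (1.37%, 1.89%, 1.27% and 2.91% of all genes lower). It was 26 without control replicate 9 and 28 without replicate 4, 8 or 12. It was 2, 3 and 4 without deltamethrin replicates 3, 1 and 2, 5 without 15, 7 without 7 or 16, 8 without 11 or 12, 9 without 6 or 13, 10 without 17, and 25, 30 and 33 without 9, 8 and 10. The H1 median changed sign, to 0.040 without scaling factors, 0.0042 with the mitochondrial covariate and 0.085 with the short-transcript score, and ran from −0.049 to 0.028 over the fits without 1 library. Class medians of H2A, H2B, H3 and H4 stayed negative. With the short-transcript score Hist1h1c was at 0.085, Hist1h4i at 0.027 and Hist2h2ac at 0.0074, and Hist1h1c was at 0.030 without scaling factors and between −0.063 and 0.012 without 1 library. The other 235 of 239 alternative values of the 20 named members, and 618 of 620 without 1 library, kept their sign. The r of the histone level with the mitochondrial rRNA share was 0.721 without scaling factors. Dropping the factors put the all-gene median at 0.043.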
